A study of Mus musculus with 2 samples.

Results

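The genes described here encode matricellular proteins and the fibronectin they act with: periostin (Postn), tenascin C (Tnc), tenascin N, also called tenascin W (Tnn), osteonectin (Sparc), fibronectin (Fn1), thrombospondin 1 and 2 (Thbs1, Thbs2) and 3 members of the CCN family (Ccn1, Ccn2, Ccn3). They were chosen by symbol, and all 10 of 10 were found among the 19430 named genes of the count tables. Their levels were followed over the spots of a healing mouse tibia, by section, by genotype and by position in the tissue. On build mm39 the tables place Tnn at chr1:159912599-159981151, Fn1 at chr1:71624679-71692360, Thbs1 at chr2:117942357-117957615, Postn at chr3:54268530-54298459 and Ccn1 at chr3:145352731-145355737. Tnc lies at chr4:63878022-63965253, Ccn2 at chr10:24471340-24474582, Sparc at chr11:55285326-55314010, Ccn3 at chr15:54609098-54617436 and Thbs2 at chr17:14885762-14914498, so that no 2 of the genes are neighbors.

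Matricellular proteins are secreted into the extracellular matrix, where they bind collagens, growth factors and cell surface receptors and alter how cells respond to the matrix, rather than bearing load themselves. Many are scarce in resting adult tissue and abundant in embryonic bone and in wounds. In a fracture callus they are known from the periosteum, from cartilage and from newly forming bone.

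The control mouse carried Nf1 +/flox without Cre. The mutant mouse carried Postn-cre;Nf1 flox/-, called Nf1Postn, so that 1 Nf1 allele was null in every cell and Cre under the periostin promoter deleted the other, floxed allele where that promoter is active. Both were females of 8 weeks with a distal tibia fracture held by an intramedullary pin, and 10 days later the calluses were taken, formalin-fixed, decalcified in EDTA and embedded together. There was 1 mouse per genotype, and 2 sections of the shared block were analyzed on Visium arrays, in which pairs of gene-specific probes are counted as unique molecular identifiers (UMIs) on a grid of spots 100 μm apart. The sections are numbered as biological replicates in the labels, but they are sections of the same block and are called section 1 and section 2 here. A spot covers several cells, so fewer expressing cells and less RNA per cell cannot be told apart. The sources do not say how spots along the contact of the calluses were assigned to a genotype.

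Section 1 held 1700 control and 1341 Nf1Postn spots, and section 2 held 1778 and 1556. The median depth was 7053 and 2030 UMIs per spot in section 1 and 5718.5 and 3239.75 in section 2, control first. Levels are given in CPM, the UMIs of a gene per 1000000 UMIs of the same pool of spots, and the intervals are exact 95% Poisson intervals that cover counting error only. Because no animal was replicated, no test between the genotypes was possible and no p-value is given. A gene is counted as higher or lower where its level differed at least 2-fold the same way in both sections, provided that it reached 50 UMIs in section 1 and in section 2 (both genotypes together). The probes of different genes capture differently, so levels are compared between groups and places for the same gene, and not between genes.

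The 2 calluses differed widely in tissue makeup. Nf1 itself was at 87.8 CPM in control and 65.6 CPM in Nf1Postn spots of section 1, and at 79.0 and 49.6 CPM in section 2. Whether its probes lie in the deleted part is not given in the sources used here, so these levels do not check the deletion. The summed markers of muscle fibers stood at 15065 and 24492 CPM in the control callus and at 69370 and 121643 CPM in the Nf1Postn callus, and those of cartilage at 45216 and 28465 CPM against 3920 and 7996 CPM. A fracture callus with little cartilage and much muscle in the field was therefore compared with one rich in cartilage. Values within regions shared by both genotypes are given after those of the whole callus. The barcodes of 2711 spots occur in both sections, because the arrays share their barcode set.

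Over the whole callus, all 10 genes had a pooled level below control in Nf1Postn. Tnn and Ccn1 were at least 2-fold lower in both sections, which is 2 of 10 genes, and 1.58% of the 11851 genes with enough UMIs were lower by the same rule. None of the 10 was higher, against 4.21% of all genes (5.79% either way). The median log2 ratio of the 10 was -0.97, beside -0.091 for all genes.

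Tnn, a tenascin of periosteum and forming bone, showed the largest difference among the 10. It was at 442 CPM in control and 191 CPM in Nf1Postn spots of section 1, and at 364 and 98.8 CPM in section 2. Both control values lay above both Nf1Postn values, and the pooled level was 2.90-fold lower (log2 -1.54, 95% interval -1.62 to -1.45). Ccn1, an integrin-binding protein that promotes angiogenesis and chondrogenesis, was at 761 and 349 CPM in section 1 and at 625 and 282 CPM in section 2. The 2 sections gave log2 ratios of -1.12 and -1.15, the closest agreement among the 10 genes, and a pooled level 2.20-fold lower.

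The region just upstream of these 2 genes is shown because they were the members counted as lower over the whole callus. RefSeq promoters, which are on build GRCm38.p6 and not on the mm39 build of the count tables, were at hand for 6 of the 10 genes (Postn, Tnc, Tnn, Sparc, Thbs2 and Ccn1), and those of Fn1, Thbs1, Ccn2 and Ccn3 were not used here. Each line is the 250 bases before the gene start on the gene's strand, at chr1:160153576-160153825 (minus strand) for Tnn and chr3:145649986-145650235 (minus strand) for Ccn1, and capitals mark CATTCC on either strand, the core that TEAD factors bind.
Tnn: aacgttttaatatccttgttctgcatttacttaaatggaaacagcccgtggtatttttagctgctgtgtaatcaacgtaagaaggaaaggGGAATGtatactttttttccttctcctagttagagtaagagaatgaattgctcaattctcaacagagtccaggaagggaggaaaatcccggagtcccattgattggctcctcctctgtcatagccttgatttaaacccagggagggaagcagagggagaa
Ccn1: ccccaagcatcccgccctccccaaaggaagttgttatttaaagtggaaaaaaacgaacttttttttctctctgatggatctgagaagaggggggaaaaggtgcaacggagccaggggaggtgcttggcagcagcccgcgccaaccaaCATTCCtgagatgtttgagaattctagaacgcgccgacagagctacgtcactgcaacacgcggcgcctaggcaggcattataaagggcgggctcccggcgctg
The motif lies at bases -160 to -155 of Tnn, on the opposite strand, and at bases -103 to -98 of Ccn1. It was searched over both strands of the 300-base windows (250 before and 50 after the start), was found in no other of the 6, and is held by 14.7% of 32851 promoters. The AP-1 motif TGANTCA (7.81% of promoters), the CArG box (1.63%), the SMAD motif GTCTAGAC (0.213%), the RUNX motif TGTGGTT (5.27%) and the SOX motif ACAATGG (3.66%) were in none of the 6. A match is a description of the letters in the window and says nothing of binding.

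The other tenascin, Tnc, which modulates cell adhesion to fibronectin, was at 987 and 590 CPM in section 1 and at 886 and 306 CPM in section 2, control first. Its log2 ratio was -0.74 in section 1 and -1.53 in section 2, so it passed 2-fold in section 2 alone. Sparc, a collagen-binding glycoprotein of bone, was at 8834 and 5430 CPM in section 1 and at 9087 and 4018 CPM in section 2. The 2 control sections of Sparc lay close together and both above the Nf1Postn values, with a pooled level 1.96-fold lower.

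Fn1, whose fibrils form the provisional matrix of a wound, was at 4661 and 2209 CPM in section 1 and at 3849 and 2092 CPM in section 2. Its pooled level was 1.95-fold lower, and it was past 2-fold in section 1 alone. Thbs1, an activator of latent TGF-β and an inhibitor of angiogenesis, was at 1232 and 737 CPM in section 1 and at 1185 and 473 CPM in section 2, with a pooled level 2.07-fold lower. Its log2 ratio was -0.74 in section 1 and -1.33 in section 2, so it was past 2-fold in section 2 alone. Thbs2, which also limits vessel growth and is made by mesenchymal cells, was at 1238 and 998 CPM in section 1 and at 1393 and 691 CPM in section 2. The difference of Thbs2 was thus small in section 1 (log2 -0.31) and past 2-fold in section 2 (log2 -1.01).

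Ccn2, a cartilage and fibrosis-associated growth regulator known as connective tissue growth factor, was at 490 and 229 CPM in section 1 and at 342 and 208 CPM in section 2. Its difference was the larger in section 1, with log2 ratios of -1.10 and -0.72. Postn and Ccn3 had no clear direction. Postn, the collagen-binding protein of the periosteum whose promoter drives the Cre of this model, was at 714 CPM (700 to 729) in control and 722 CPM (694 to 751) in Nf1Postn spots of section 1, with overlapping intervals, and at 924 and 450 CPM in section 2. Ccn3, a CCN protein that can oppose Ccn2, was at 147 and 155 CPM in section 1 and at 243 and 124 CPM in section 2. For these 2 genes the control sections differed from each other by more than the genotypes differed in section 1.

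**Figure D1:**
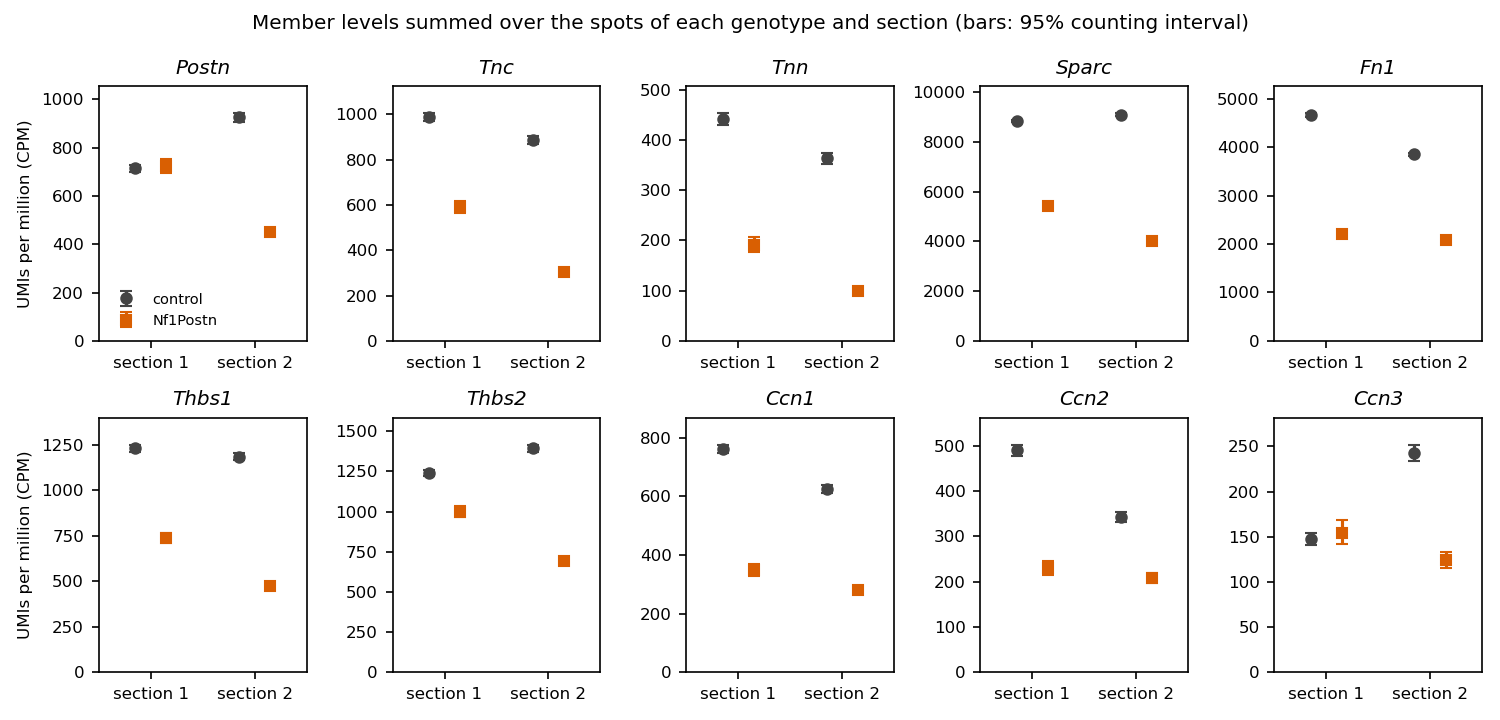
Level of each gene in CPM, summed over the spots of each genotype and section, with 95% Poisson intervals. Control values (circles) lay above the Nf1Postn values (squares) of the same section for every gene except Postn and Ccn3 in section 1.

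The share of spots with a UMI followed depth as well as level. Tnn was seen in 70.3% of control and 26.5% of Nf1Postn spots in section 1. With every spot thinned to 1000 UMIs and shallower spots left out (1655 control and 1126 Nf1Postn spots remained), these shares were 27.1% and 12.6%. In section 2 the thinned shares of Tnn were 24.8% and 7.55%. For Postn, the thinned shares were 40.6% and 40.0% in section 1 and 50.3% and 31.1% in section 2, the same order as its CPM except that the near-equal values of section 1 changed places.

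Where the genes lay in the control callus was examined next. Spots were grouped into 15 regions by the expression of 16815 genes, and each region is described by its leading genes. The 10 genes and the lists of related genes had been left out of the grouping. The cell type markers had not, so their summed levels by region are not independent of it. Cartilage genes led region 9 (Ucma, Scrg1, Cnmd, Acan) and region 7 (Col10a1, Ihh, Col2a1), with the hypertrophic markers leading the latter. Both are called cartilage regions here for their leading genes. By the study's own labels for control spots of section 1, region 9 held 187 spots of ossifying perichondrium and 73 of cartilage. Region 7 held 200 of cartilage and 62 of woven bone. Region 2 was led by the osteoclast genes Acp5, Siglec15 and Mmp9, and region 13 by Sost, Mepe, Bglap and Dmp1. Region 12 was led by Gpnmb, Mmp3, Il1rn and Lrrc15, region 6 by Prg4, Adipoq, Cfd and C3, region 11 by the embryonic muscle genes Myh8, Tnnt2 and Myh3, and region 1 by muscle fiber genes such as Myh7.

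All of the genes but Thbs1 fell into 4 patterns in the control callus, and each pattern was seen in both sections. Tnn and Ccn1 were highest in region 9. Tnn was at 900 CPM there in section 1 and at 828 CPM in section 2, 3.76 and 3.22 times the median over regions. Ccn1 was at 1355 and 1222 CPM in region 9 and next highest in region 7, at 977 and 878 CPM. Fn1 and Ccn2 were shared by both cartilage regions, with Fn1 at 6568 and 6703 CPM in regions 7 and 9 of section 1 and at 7460 and 5882 CPM in section 2. Other regions came near these Fn1 levels, with regions 6 and 12 at 5823 and 5589 CPM in section 1. In section 2, region 12 was at 5233 CPM and region 6 at 3037 CPM. Ccn2 was at 760 and 767 CPM in regions 7 and 9 of section 1 and at 680 and 593 CPM in section 2. The only control region above these was region 15 of section 1, a region of 23 spots of very low depth.

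The second pattern was that of bone. Tnc was at 1588 and 1719 CPM in regions 2 and 13 of section 1 and at 1448 and 1390 CPM in section 2, against 584 and 613 CPM in region 7. Sparc followed it with 11506 and 12388 CPM in section 1 and 13515 and 11747 CPM in section 2. Over the 42 pools of region, section and genotype with at least 20 spots, the log levels of Tnc and Sparc had a Pearson correlation of 0.93. Such pools share libraries and depth, and the value is given as a description.

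The third pattern was that of region 12, where Postn was at 1928 CPM in section 1 and 1772 CPM in section 2. Thbs2 was highest there too, at 3023 and 3092 CPM, which is 11.7 times its level in region 1 of section 1. Thbs1 was between this pattern and that of cartilage. It was highest in region 10 of section 1 (2339 CPM over 24 spots), which shares its leading genes Mmp3, Gpnmb and Il1rn with region 12, and in region 12 of section 2 (2320 CPM), with region 9 next in both sections (1821 and 1613 CPM).

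Ccn3 had a pattern of its own. It was highest in region 6 in both sections and both genotypes, at 368 and 511 CPM in control and at 370 and 547 CPM in Nf1Postn. In control of section 2, region 11 was next at 480 CPM (438 to 525), an interval that overlaps that of region 6 (477 to 546). In region 7 the control values were 73 and 63.0 CPM. Ccn2 and Ccn3 were therefore highest in different control regions, although Ccn2 was also at 650 CPM in region 6 of section 1. Their correlation over the 42 pools was -0.22, the lowest of any pair of the 10 genes. It was -0.43 over the control pools, among them region 15 of section 1 with Ccn3 at 0 CPM, and 0.041 over the Nf1Postn pools.

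**Figure D2:**
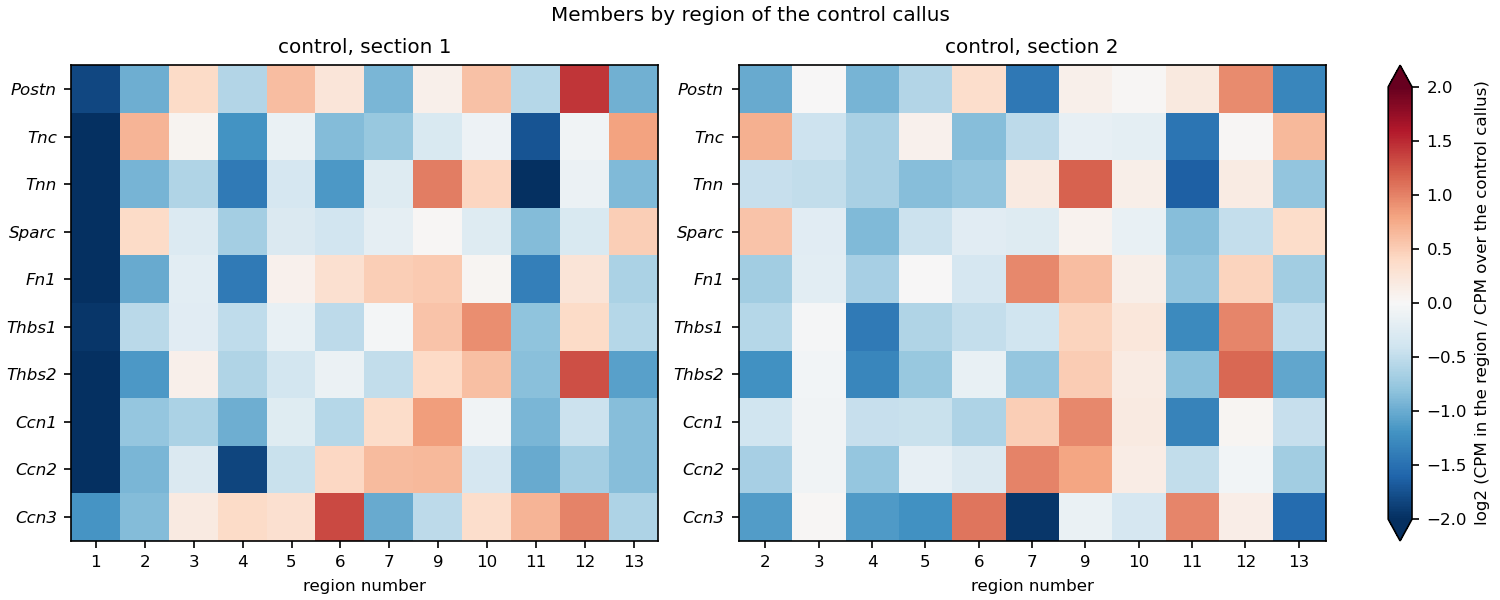
Log2 ratio of each gene's CPM in a region to its CPM over the whole control callus of the same section, for regions with at least 20 control spots, region 15 left out. Tnn and Ccn1 are reddest in region 9, Fn1 and Ccn2 in regions 7 and 9, Tnc and Sparc in regions 2 and 13, Postn and Thbs2 in region 12 and Ccn3 in region 6.

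**Figure D3:**
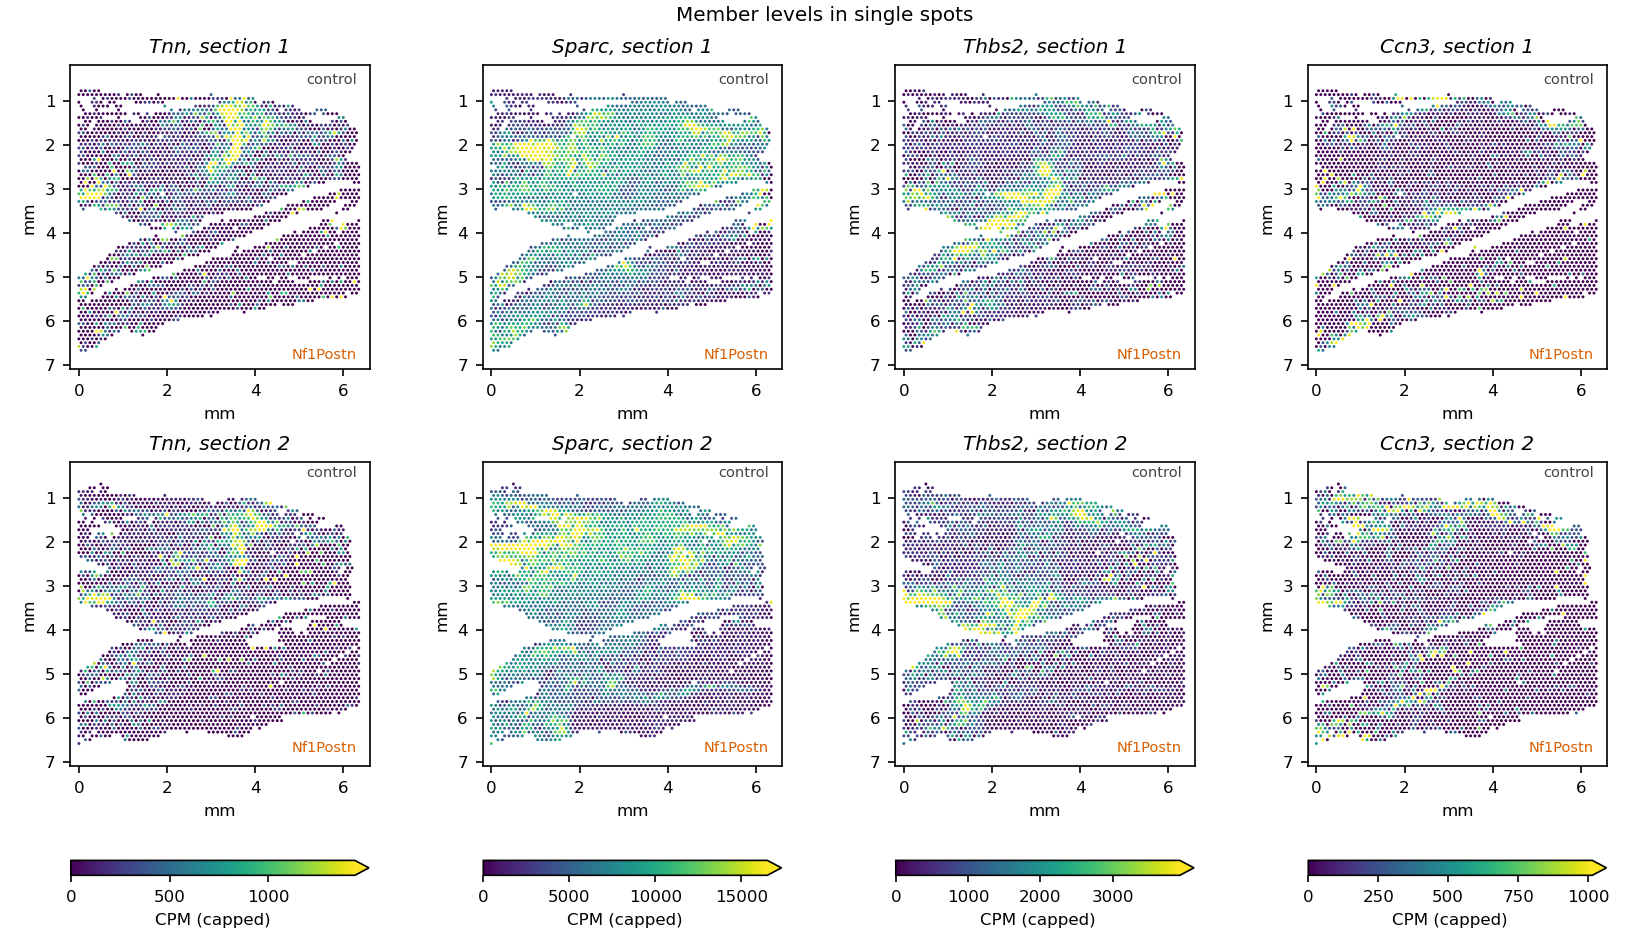
CPM of Tnn, Sparc, Thbs2 and Ccn3 in each spot, with both axes in mm on the array and colors capped at the 98th percentile of spots (1438, 16499, 3931 and 1015 CPM). The control callus lies above and the Nf1Postn callus below. Tnn forms a band in the upper middle of the control callus, Sparc is bright to its left and right, Thbs2 forms a patch along its lower border, and Ccn3 is in scattered spots near the edges of both calluses.

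The regions richest in these genes were mostly control tissue. Of the control spots, 31.1% in section 1 and 14.6% in section 2 lay in regions 7 and 9, but of the Nf1Postn spots 0.3% and 2.1%. Regions 2 and 13 held 26.8% and 24.0% of control spots and 1.0% and 1.3% of Nf1Postn spots. In section 1, 64.4% of the control UMIs of Tnn and 61.1% of those of Ccn1 came from regions 7 and 9, which held 36.8% of all control UMIs. In section 2 these shares were 38.5% and 35.0%, beside 19.2% of all UMIs. Regions 2 and 13 held 51.1% and 44.4% of the control UMIs of Tnc, beside 31.5% and 27.4% of all control UMIs. Ccn3 was the gene least drawn from cartilage, with 23.8% and 14.6% of its control UMIs in regions 7 and 9.

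Nf1Postn and control were then compared within the same regions. Regions 3, 4, 5, 6 and 11 had at least 20 spots of each genotype in each section and held 29.2% of control and 49.1% of Nf1Postn spots. Region 3 was led by Cadm4, Gap43 and Lgi4, region 4 by Retnla, Ache and globin genes, and region 5 by Angptl7, Cilp2 and Mepe at low depth. Over all their spots, summed muscle fiber markers were at 20335, 78807, 46820, 15250 and 112856 CPM in regions 3, 4, 5, 6 and 11. Whether the genotypes had the same tissue makeup inside a region was not tested. The cartilage regions and the bone-rich regions 2 and 13 could not be compared in both sections. Region 5 had the bone genes Mepe and Sost among its leading genes. Its summed bone markers were at 5310 CPM over all its spots, below those of region 2 (7833 CPM) and region 13 (11946 CPM). Tissue with bone genes was therefore not absent from the 5 regions compared. Within these 5 regions no gene of the 10 was past 2-fold in both sections, while 0.289% of 9691 genes were lower and 0.186% higher (0.475% either way).

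All 10 pooled log2 ratios within regions were below 0, from -0.53 for Ccn2 to -0.11 for Thbs2, with a median of -0.42 beside -0.026 for all genes. The single sections were less uniform. Postn was above 0 in section 1, at 0.15 (0.025 to 0.27), and at -0.83 in section 2. Thbs2 was at 0.071 (-0.030 to 0.17) in section 1 and -0.27 in section 2. Ccn1, at -0.42 in section 1 and -0.38 in section 2, and Thbs1, at -0.38 and -0.46, had like ratios in both sections. Tnn went from -1.54 over the whole callus to -0.42 within regions, and there it was at 0.015 (-0.21 to 0.24) in section 1 and -0.91 in section 2. Tnc went from -1.14 to -0.30 and Sparc from -0.97 to -0.25. Ccn3 and Postn changed less, from -0.58 to -0.46 and from -0.58 to -0.41. By section, Ccn3 went from 0.070 to -0.096 in section 1 and from -0.97 to -0.65 in section 2. With the muscle fiber and erythroid genes left out of the totals of the whole callus, Tnn was still past 2-fold in both sections and Ccn1 was not. Such totals were not used within regions.

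**Figure D4:**
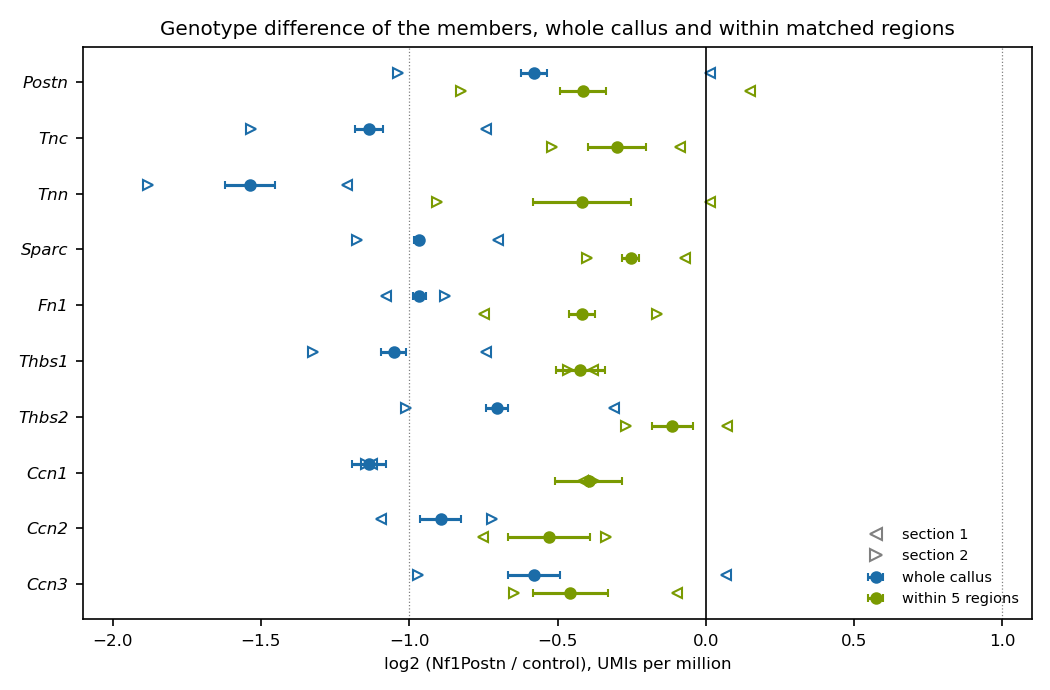
Log2 ratio of Nf1Postn to control CPM over the whole callus and within the 5 regions with enough spots of both genotypes. Filled circles are ratios pooled over sections with 95% counting intervals, triangles are the single sections, and dotted lines mark 2-fold. All 10 circles lie below 0 in both comparisons and lie nearer to 0 within regions, with the smallest shift for Ccn3.

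In single regions the differences were uneven. Ccn2 in region 11, the region of embryonic muscle genes, was the only value past 2-fold the same way in both sections. It was at 244 CPM in control and 121 CPM in Nf1Postn in section 1 and at 244 and 114 CPM in section 2 (pooled log2 -1.07, -1.33 to -0.82), where 1.03% of 3484 genes were lower. Ccn2 was also lower in region 6, at 650 and 251 CPM in section 1 and 281 and 165 CPM in section 2. The control value of section 1 stood apart from the other 3 there, and section 2 was not past 2-fold (log2 -0.77). In region 5 Ccn2 was instead higher in Nf1Postn in section 2, at 306 and 674 CPM. The values of section 1 there, 360 CPM (256 to 492) and 407 CPM (293 to 550), had overlapping intervals. Fn1 in region 6 was at 5823 CPM in control and 2016 CPM in Nf1Postn in section 1 and at 3037 and 2182 CPM in section 2. The control value of section 1 stood apart from the other 3. Postn in region 11 went opposite ways, from 480 to 690 CPM in section 1 and from 1061 to 458 CPM in section 2. No gene of the 10 was counted as lower in regions 3, 4, 5 or 6 (0.0239%, 0.0574%, 0.701% and 0.595% of all genes), or as higher in any of the 5 regions (0.525%, 0.459%, 0.701%, 0.113% and 0.144% in regions 3, 4, 5, 6 and 11). Ccn3 could not be counted in region 5, where it had 29 UMIs in section 1.

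Position along the bone was taken from the study's own spot labels, which give a tissue region and a class of relative distance from the fracture plane, from 0 to 25, for 1344 control spots of section 1. There is no second section or Nf1Postn spot with such a label, so these values have no repeat. Tnn, Fn1, Thbs1 and Ccn1 were at least 2-fold higher in classes 0 to 4 than in classes 20 to 25, which is 4 of 10 genes, where 3.31% of 9295 genes were. None was 2-fold lower, against 5.76% of all genes.

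Ccn1 had the largest ratio between the end classes. It was at 1348, 854, 462, 471 and 471 CPM in classes 0 to 4, 5 to 9, 10 to 14, 15 to 19 and 20 to 25, which is 2.86-fold from the nearest to the farthest class. Tnn was at 815, 431, 251, 269 and 351 CPM over the same classes. Its lowest level was in the middle class and not at the far end, and the same held for Thbs1, at 2047, 1188, 818, 868 and 1008 CPM. Fn1 was at 7843, 4613, 2694, 2620 and 3915 CPM. Fn1 and Thbs1 were at the edge of the 2-fold bound, at 2.00 and 2.03-fold. With classes 0 to 2 and 23 to 25 as the ends Fn1 was no longer past it, and with spots thinned to 1000 UMIs Tnn and Thbs1 were not, so Ccn1 alone passed in every setting run.

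Postn, Thbs2 and Ccn2 were also highest nearest the plane, but by less than 2-fold over the farthest class. Postn was at 1098 CPM nearest the plane, at 436 CPM in classes 15 to 19 and at 689 CPM in the farthest class. Thbs2 was 1.82-fold and Ccn2 1.71-fold higher nearest the plane than farthest. Tnc and Sparc ran the other way. Tnc was at 717 CPM nearest the plane, 1380 CPM in classes 10 to 14 and 1175 CPM farthest, and Sparc went from 7693 to 10924 CPM. Ccn3 stayed between 115 and 152 CPM until the farthest class, where it was at 242 CPM.

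**Figure D5:**
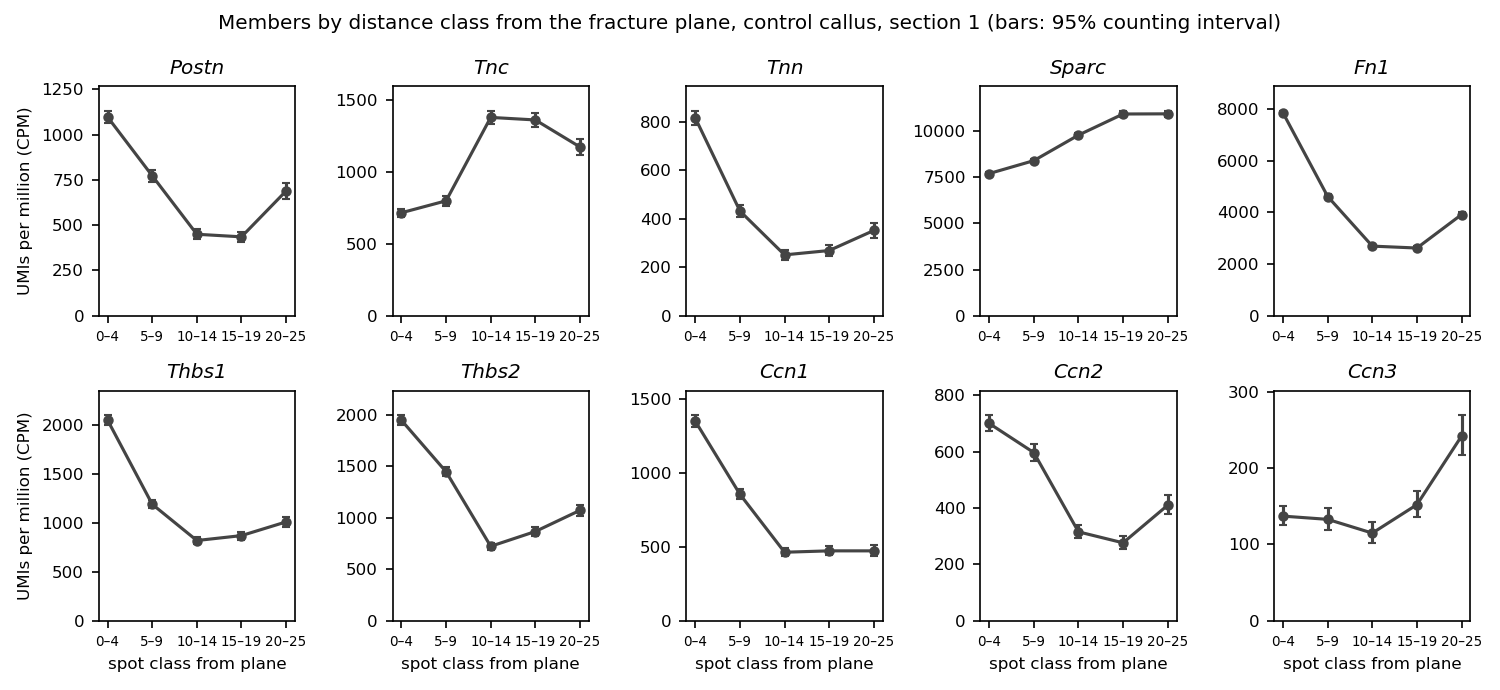
CPM of each gene in 5 classes of relative distance from the fracture plane in the control callus of section 1, with 95% Poisson intervals. 7 panels start at their highest point, nearest the plane, whereas Tnc, Sparc and Ccn3 peak farther out.

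Tissue makeup changed along the same axis. In the study's labels, ossifying perichondrium was the largest tissue nearest the plane, with 56.6% of spots in classes 0 to 4. It made up 33.3% in classes 5 to 9, 13.7% in classes 10 to 14 and 20.9% in classes 15 to 19. Cartilage made up 34.0% of spots in classes 0 to 4, 35.6% in classes 5 to 9 and none in classes 20 to 25. Woven bone rose from 2.4% to 59.8% in classes 10 to 14 and was 34.0% farthest out. Progenitor tissue went from 7.1% nearest the plane to 27.5% farthest out. The fall of Tnn, Fn1, Thbs1 and Ccn1 from classes 0 to 4 to classes 5 to 9 thus came without a smaller share of cartilage. By these labels Tnn (720 CPM), Fn1 (9928 CPM), Thbs1 (1718 CPM), Ccn1 (1567 CPM) and Ccn2 (1010 CPM) were highest in cartilage. Postn was highest in progenitor tissue (1094 CPM) and ossifying perichondrium (1061 CPM), and Thbs2 in ossifying perichondrium (1960 CPM). Tnc (1516 CPM) and Sparc (10985 CPM) were highest in woven bone, and Ccn3 in progenitor tissue (374 CPM) with 55.8 CPM in cartilage. The labels come from the study's clustering of these spots, so the levels by label are a description.

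The order from near to far was then read within the same labelled tissue, classes 0 to 9 against classes 15 to 25. The share of all genes past 2-fold was not counted for this comparison. Postn in progenitor tissue was at 1729 CPM over 39 near spots and at 670 CPM over 80 far spots, 2.58-fold (log2 1.37, 1.14 to 1.59). Ccn1 in ossifying perichondrium was at 1053 CPM over 272 near spots and 487 CPM over 97 far spots, 2.16-fold. In other tissues these steps were smaller or absent. Postn in woven bone was at 336 CPM near and 373 CPM far (log2 -0.15, -0.36 to 0.06), and Ccn1 in progenitor tissue was at 668 and 551 CPM (log2 0.28, -0.03 to 0.58). Tnn in ossifying perichondrium was at 687 and 467 CPM, a smaller step than over all labelled spots, and Thbs1 was at 1761 and 958 CPM. Tnc was lower near the plane in ossifying perichondrium (790 and 1187 CPM) and in woven bone (979 and 1576 CPM), and Sparc was lower near the plane in all 3 tissues compared. Ccn2 went opposite ways, lower near the plane in progenitor tissue (344 and 670 CPM) and higher in woven bone (454 and 238 CPM).

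Distance from the cartilage regions could be measured in both sections, as the distance of each control spot outside regions 7 and 9 to the nearest spot inside them. Fn1 was the only gene of the 10 past 2-fold in both sections between spots within 200 μm and spots over 1000 μm away, where 3.57% of 8817 genes were higher beside cartilage and 3.58% lower. This depended on the clustering, since at resolution 0.3 Tnn and Ccn1 passed and Fn1 did not, and at resolution 1.0 all 3 passed. Its level went from 4411 through 3728 and 2448 to 1176 CPM in section 1, with bounds at 200, 500 and 1000 μm, and from 3891 through 3327 and 2698 to 1814 CPM in section 2. Fn1 was lower in each more distant class in both sections, and so were Tnn, Thbs2 and Ccn1. The pooled log2 ratio of Fn1 between the end classes was 1.46, beside a median of 0.20 for all genes. The tissue makeup of these classes was not measured. A change of Fn1 within a tissue therefore cannot be told from a change of tissue with distance. Tnc was instead highest at 200 to 500 μm in section 1 (1376 CPM) and at 500 to 1000 μm in section 2 (992 CPM), and Sparc at 500 to 1000 μm in both (10574 and 10567 CPM). Ccn2 and Ccn3 went opposite ways in the 2 sections. Ccn2 went from 397 to 162 CPM in section 1 and from 290 to 450 CPM in section 2, and Ccn3 from 181 to 129 CPM and from 213 to 415 CPM.

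The genes most like each of the 10 over the 42 pools were taken by Pearson correlation of log2(CPM + 1) among genes of no list here. The pools include region 15 of the control callus in section 1, with 23 spots, where Tnn and Ccn3 were both at 0 CPM. Tnn and Ccn3 had a correlation of 0.64 over the 42 pools (0.75 in control and 0.31 in Nf1Postn pools), although they were highest in different regions. In the same pool of region 15, Ccn2 was at 1389 CPM on 11 UMIs, its highest level of any pool, and Fn1 at 7070 CPM on 56 UMIs. The correlations of Tnn, Ccn3, Ccn2 and Fn1 are therefore to be read with care. Postn and Thbs2 both had Mmp2, a gelatinase of fibroblasts, as their nearest gene (0.91 for each). Tnc was nearest to the collagenase gene Mmp13 and the mesenchymal factor gene Twist1 (0.93 for each), and Sparc to Rcn3 (0.96) and the collagen chaperone gene Serpinh1 (0.95). Tnn was nearest to P3h4 (0.95), which encodes a partner of collagen-modifying enzymes, and Ccn1 to Emilin1 (0.92) and the chondrocyte factor gene Sox9 (0.89). Ccn2 was nearest to Prelp (0.87), Ccn3 to Adamtsl3 and the elastic fiber gene Fbln5 (0.92 for each), Fn1 to Niban2 (0.87) and Thbs1 to Lgals1 (0.91). Among the 10 themselves, the highest values after that of Tnc and Sparc were those of Thbs1 with Thbs2 (0.88), Fn1 with Ccn2 (0.87) and Thbs1 with Ccn1 (0.87).

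Related genes from lists were read beside the 10, over the whole callus. For each list, the share to set beside its counts is that of all genes, 1.58% lower and 4.21% higher in Nf1Postn. Of 13 other matricellular genes with enough UMIs, 1 was lower and 1 higher in Nf1Postn. Lists this short cannot be told from those shares by 1 gene. Comp, the cartilage oligomeric matrix protein, was lower with a pooled log2 ratio of -1.61, followed by Spp1 (-1.25), and Tnxb, a tenascin of loose connective tissue, was higher at 1.21, followed by Spock2 (0.43). Tnxb and Tnn thus stood at opposite ends of the tenascins measured. Of 17 receptors, Lrp1, an endocytic receptor for thrombospondins, was lower (-1.13), with Itgav next (-0.80). The epithelial integrin gene Itgb6 was higher (2.22, on 89 UMIs in section 1 and 246 in section 2), with Cd36 next (0.96).

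Of 12 genes of matrix assembly partners (collagens, crosslinking and processing enzymes, Fbn1 and Ltbp1), all had pooled ratios below 0 (median -0.67), and the crosslinking enzyme gene Lox was past 2-fold in both sections (-1.57). Loxl2 was next lowest at -1.01, and Loxl1 (-0.046) and Col3a1 (-0.10) were nearest to 0. Within regions Lox was at -0.53. Of 19 YAP and TEAD target genes other than the CCN genes, none was past 2-fold in both sections, with Nt5e (-1.15) and Foxf2 (-1.04) lowest and Gadd45a (0.78) and Axl (0.31) highest. Of 12 TGF-β ligands, receptors and targets, none was past 2-fold in both sections either, with Ltbp2 (-0.93) among the lowest and Tgfb2 (0.17) and Ski (0.02) highest. Within the 5 regions no gene of these 5 lists was counted as higher or lower, where 0.186% of all genes were higher and 0.289% lower.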

How the data were processed

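The authors aligned probe reads to mm39 with Space Ranger 1.3.0, per the labels, and exported per-spot tables from Partek Flow. The deposited values are unnormalized UMI counts, which are treated like estimated counts since 10 entries, most of them joining several identifiers, are not whole. An unnamed entry (6.8e-05% of UMIs in section 1) was left out, as were 5 spots without a genotype label. The deposited genotype labels and spot positions were used as they are, and the study's tissue and distance labels were joined by barcode to 1344 spots.

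Here, counts were summed over spots and divided by the pool's total. Ratios were pooled over sections, or over regions and sections, as Mantel-Haenszel rate ratios with 95% intervals for counting error. Regions came from Leiden clustering (leidenalg 0.10.2, resolution 0.5) of 20 principal components with 15 neighbors, and no doublet caller was run on spots. Regions with at least 20 spots per section and genotype were compared. The genes described and the lists were chosen with earlier results of these data known, and the named genes are all 10, the extremes and counted genes of each list, and the most correlated genes, apart from a few that are not reported here. Alternatives were other resolutions, TMM factors (edgeR 4.0.16), other totals, thinning, depth and fold thresholds, and sections left out. The pipeline was tested on simulated data. Python 3.11.15 and scipy 1.17.1 were used.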

Additional observations from a re-analysis of the deposited data

How the results depend on the processing

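No paired analysis was possible because there was 1 mouse per genotype and no test was run. Of the 10 genes, 2 were past 2-fold over the whole callus. Single sections gave 4 to 7 (section 2 alone added Postn, Tnc, Sparc, Thbs1 and Thbs2, section 1 alone Fn1 and Ccn2), TMM factors gave 4 (Tnc and Thbs1 added), a 1.5-fold bound gave 7, and Tnn was the 1 left both without muscle fiber and erythroid genes in the totals and with spots thinned to 1000 UMIs. TMM factors moved the median of all genes from -0.09 to -0.21 and the other totals moved it to 0.034. All genes higher in Nf1Postn numbered 499, with 775 to 782 in single sections, 295 after thinning, 2784 with at least 1 UMI per section and 972 at 1.5-fold. Genes lower numbered 187, with 282 to 742, 337 with TMM, 119 after thinning and 755 at 1.5-fold. Within regions, none of the 10 was past 2-fold in the main setting or any of the 6 alternatives run. All genes higher there numbered 18, with 94 to 108 in single sections, 29 at resolution 0.3 and 678 with at least 1 UMI, and genes lower 28, with 134 to 157 and 299 with at least 1 UMI. Nearest the fracture plane, 4 of the 10 were higher, 2 after thinning (Fn1 and Ccn1) and 3 with classes 0 to 2 and 23 to 25 as the ends (Tnn, Thbs1 and Ccn1). Beside cartilage, Fn1 was the 1 gene, with 2 to 6 in single sections, 2 at resolution 0.3 (Tnn and Ccn1, without Fn1) and 3 at resolution 1.0. For the fracture plane and for cartilage, the share of all genes was counted in the main setting alone. The counts of the 10 in the other settings there have no such share beside them and cannot be judged against it. Of single-gene ratios, 58 of 60, 47 of 50, 20 of 20 and 48 of 50 kept their sign in these 4 comparisons. Over the whole callus, the intervals of Tnn and Ccn3 were the widest of the 10.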

Other observations

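In section 2 alone, regions 7 and 12 held at least 20 spots of both genotypes, with 130 control and 27 Nf1Postn spots in region 7 and 153 and 34 in region 12. In region 12, Postn was at 1772 CPM in control and 1164 CPM in Nf1Postn, Thbs1 at 2320 and 1123 CPM and Thbs2 at 3092 and 2524 CPM, while Sparc was at 6521 and 7369 CPM. In region 7, Fn1 was at 7460 CPM in control and 4954 CPM in Nf1Postn, whereas Sparc was at 7623 and 8947 CPM and Thbs2 at 811 CPM (737 to 891) and 1118 CPM (956 to 1298). Postn was at 343 CPM (295 to 396) and 497 CPM (391 to 622), Tnn at 411 CPM (359 to 469) and 281 CPM (203 to 379) and Ccn2 at 680 CPM (612 to 753) and 889 CPM (746 to 1051), with intervals that overlap for each of these 3. Section 1 had no Nf1Postn spot in region 7 and 17 in region 12, so these values have no repeat.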
